A study of Mus musculus with 6 samples.

Results

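Mrc1, Stab1, Folr2, Chil3, Fn1, Tgm2 and Il4ra are genes by which alternatively activated and tissue-resident macrophages are recognised. They were followed on 6 Affymetrix arrays of mouse peritoneal exudate cells, through every probe set whose platform annotation gives 1 of these 7 symbols and no other. This rule found 8 probe sets among the 10833 with a single symbol, which stand for 8251 genes in all: 1 for each gene and a pair for Il4ra. Lower signals were raised to a floor of 98.0 before the logarithm was taken, and all 8 exceeded it on at least 1 array.

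The 3 genotypes, all labelled C57BL/6, were wild type (WT), a knockout lacking NF-IL6 (KO) and the knock-in KI(LAP) (KI). NF-IL6 is the older name of C/EBPβ, the product of Cebpb, and LAP is its transcription-activating isoform. Each genotype was measured untreated and after LPS+IFN-gamma, bacterial lipopolysaccharide with interferon-γ, with 1 array in each of the 6 groups. The stimulation lasted 12 h in KO and KI cells, and the WT label gives no time. No group had a replicate, and the labels do not say whether an array held cells of 1 mouse or a pool, how the exudate was raised, or how either allele was made. Signals are MAS5 intensities on a linear scale, and each probe set is compared only with itself across arrays.

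Macrophages respond to interleukin 4 and interleukin 13 through receptors that contain the Il4ra chain and act through the transcription factor Stat6. This alternative programme raises endocytic receptors, secreted lectins and matrix-modifying proteins, whereas lipopolysaccharide with interferon-γ drives the opposing, classical programme. Mrc1 is the mannose receptor, Stab1 (stabilin 1) a scavenger receptor, and Folr2 the folate receptor β of resident macrophages. Chil3, also called Ym1, is a secreted chitinase-like lectin, Fn1 is fibronectin, and Tgm2 is the transglutaminase that crosslinks proteins.

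Promoter sequences are shown for the gene that differed most between genotypes (Chil3), the one with the largest fall on stimulation (Mrc1) and the one that rose (Il4ra). Each is the 250 bases before the RefSeq transcription start on GRCm38.p6, written 5′ to 3′ on the gene's strand. They are Chil3 at chr3:106167565-106167814 on the minus strand, Mrc1 at chr2:14229164-14229413 on the plus strand and Il4ra at chr7:125552021-125552270 on the plus strand. Capitals would mark matches to 2 motifs searched on both strands, TTGCNNAA for C/EBP factors and, for Stat6, TTC and GAA with 4 free bases between them.
Chil3: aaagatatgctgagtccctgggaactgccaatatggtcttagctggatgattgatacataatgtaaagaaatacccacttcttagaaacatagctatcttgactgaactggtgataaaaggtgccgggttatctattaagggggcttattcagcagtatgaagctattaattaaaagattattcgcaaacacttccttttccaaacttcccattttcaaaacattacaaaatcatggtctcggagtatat
Mrc1: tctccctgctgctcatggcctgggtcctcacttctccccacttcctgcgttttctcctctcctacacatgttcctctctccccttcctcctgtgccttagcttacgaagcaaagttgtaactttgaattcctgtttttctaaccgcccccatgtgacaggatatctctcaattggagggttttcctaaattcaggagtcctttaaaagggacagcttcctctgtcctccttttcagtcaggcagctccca
Il4ra: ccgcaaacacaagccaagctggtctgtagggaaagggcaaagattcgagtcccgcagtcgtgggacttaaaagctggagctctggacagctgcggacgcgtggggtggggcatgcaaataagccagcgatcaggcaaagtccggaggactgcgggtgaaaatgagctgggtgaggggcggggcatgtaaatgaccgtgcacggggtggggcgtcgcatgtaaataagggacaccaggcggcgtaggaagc
The promoter table held 5 of the 7 genes, Fn1 and Tgm2 not among them, with a pair of starts for Folr2. Neither motif occurred in the windows of Chil3, Mrc1, Il4ra, Stab1 and Folr2, so all letters are in lower case. In all 32851 windows of the same length, the C/EBP motif occurred in 9.56% and the Stat6 motif in 5.85%. The absence says only that these letters are not in these windows.

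The arrays were checked before the genes were read. Untreated and stimulated Cebpb signals were 5492 and 9329 in WT cells and 2284 and 5890 in KI cells, while KO cells gave 12.7 and 59.0, both under the floor. The arrays' median signals lay between 131 (KI, stimulated) and 185 (WT, untreated), with 55.7% and 65.8% of probe sets above the floor. All 8 measured macrophage markers were above the floor on all 6 arrays. All 6 B cell markers were too, with sums from 1975 to 7013. Of 7 T cell markers, 5 were under the floor on all arrays (Cd3e, Cd3d, Cd3g, Cd8a and Thy1), and so were 3 of 4 eosinophil markers. Cd4, another T cell marker, was above it on all 6. Of 7 mast cell markers, 3 were under the floor on all arrays, and Cma1 and Tpsb2 were above it on all 6. The sum of 5 dendritic cell markers was 1904 in untreated WT and 7943 in untreated KI cells. Of these, Itgax was 816 and 7301, while Flt3 was 746 and 375. The labels call the cells both peritoneal exudate cells and peritoneal macrophages and name no sort, so fewer cells of a type and less RNA per cell cannot be told apart.

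**Figure D1:**
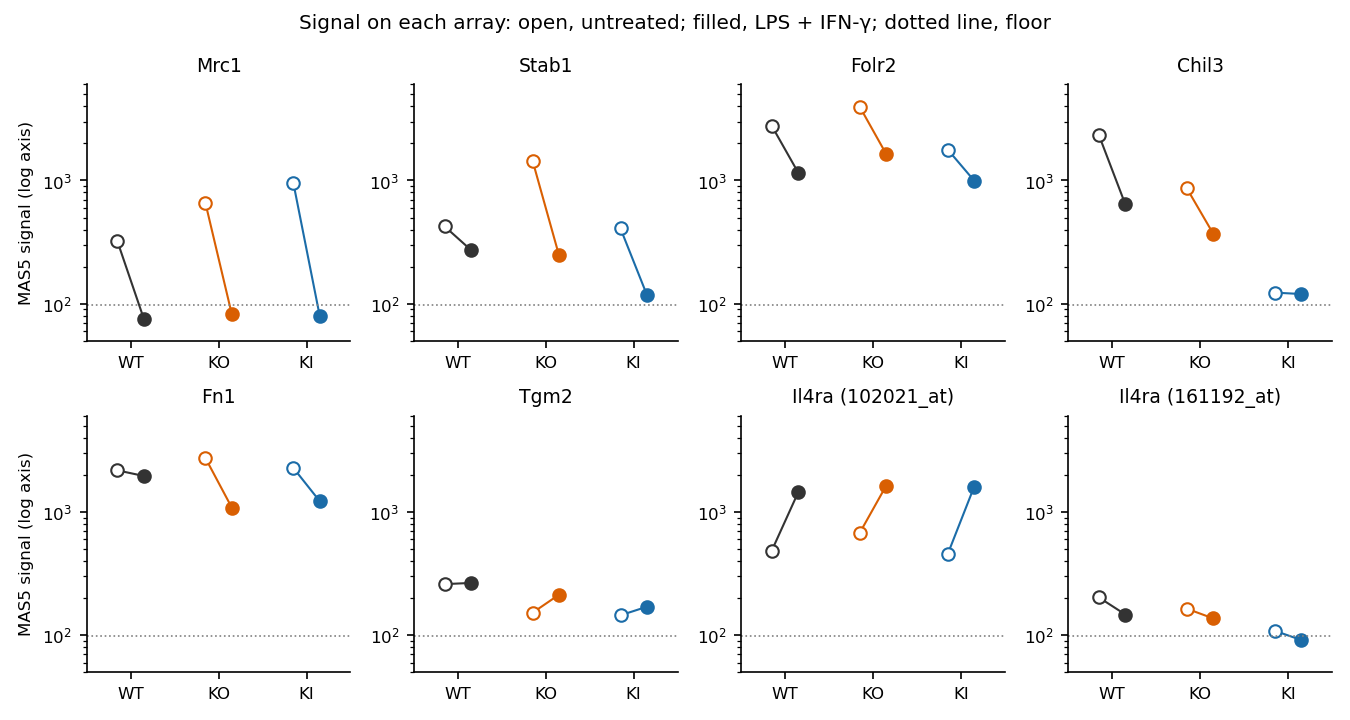
MAS5 signal (log axis) of each of the 8 probe sets on the 6 arrays, with open points for untreated and filled points for stimulated cells of WT, KO and KI, and a dotted line at the floor of 98.0. Mrc1 fell under the floor in all 3 genotypes, Il4ra (102021_at) rose in all 3, and Chil3 was lowest in KI.

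With stimulation, Il4ra rose, Mrc1 and Folr2 fell, and Stab1, Fn1, Chil3 and Tgm2 did not pass the test. The comparison asks how far the classical stimulus moved genes of the opposing programme. It was fitted with limma on the 6 arrays, genotype being a block, so its error is the variation of the response between genotypes and not between animals. Of the 8 probe sets 1 rose, against a background of 5.03% of the 9344 probe sets tested, and 2 fell, against 6.01%, which makes 3 of 8 in either direction against 11%. Their median log2 change was -0.92, beside -0.12 for all probe sets tested. The stimulated arrays all lay below the untreated ones for 4 of the 8 (17.2% of all tested) and all above them for 1 (9.76%). Changes of at least 1 on the log2 scale between the arrays of a genotype, which have no test, were 1 higher (8.54% of all tested) and 3 lower (10.1%) of the 8 in WT, 1 higher (6.54%) and 5 lower (9.66%) in KO, and 1 higher (5.58%) and 2 lower (8.01%) in KI cells. When any 1 of the 6 arrays was left out, none of the 3 calls remained (limma adjusted p from 0.106 to 0.31), although none of these 3 changes turned its sign. Without the filter on low values no call remained either (limma adjusted p from 0.088 to 0.157).

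Il4ra, the signalling chain for interleukin 4 and interleukin 13, had signals on probe set 102021_at of 486 and 1440 in untreated and stimulated WT cells, 676 and 1629 in KO cells and 454 and 1594 in KI cells. All 3 stimulated arrays were above all 3 untreated ones, and the stimulated signals lay within a narrow band. The mean log2 change was 1.55 (SE 0.17, limma adjusted p = 0.00983), a rise of 2.93-fold. Within genotypes the rise was 2.96-fold in WT, 2.41-fold in KO and 3.51-fold in KI cells. It alone of the 8 probe sets exceeded a log2 change of 1 in every genotype (3.26% of all tested did).

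The other Il4ra probe set, 161192_at, did not follow it. Its signals were 203 and 147 in WT, 164 and 137 in KO and 109 and 91.6 in KI cells, the last under the floor. The groups overlapped and every stimulated signal was below its untreated partner (log2 change -0.29, SE 0.17, limma adjusted p = 0.333). The probe sets of this gene thus disagree in direction, and Pearson's r between them over the 6 arrays was -0.364. The platform annotation ties 102021_at to a sequence record and 161192_at to none. The signals of 161192_at went down from array to array in the same order as the arrays' median signals.

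Mrc1, which binds mannose-bearing glycoproteins and microbes, had signals of 321 and 75.6 in WT, 659 and 82.5 in KO and 956 and 79.8 in KI cells. Every stimulated array was under the floor, whatever the untreated signal had been. Mrc1 was therefore lower after stimulation by at least 3.27-fold in WT, at least 6.72-fold in KO and at least 9.77-fold in KI cells. With stimulated values at the floor the mean log2 change was -2.58 (SE 0.37, limma adjusted p = 0.0183). It alone of the 8 was below a log2 change of -1 in every genotype (2.53% of all tested were). With a floor at the 60th percentile the change shrank to -1.22 and the call ended (limma adjusted p = 0.0614).

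Folr2, which binds folate, had signals of 2772 and 1160 in WT, 3962 and 1644 in KO and 1782 and 999 in KI cells. The states did not overlap, and the lowest untreated signal, in KI, was close above the highest stimulated one, in KO. The log2 change was -1.12 (SE 0.15, limma adjusted p = 0.0144), a decline of 2.17-fold. Within genotypes it was 2.39-fold in WT, 2.41-fold in KO and 1.79-fold in KI cells.

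Stab1, which clears modified lipoproteins and matrix fragments, had signals of 424 and 273 in WT, 1448 and 249 in KO and 408 and 118 in KI cells. The untreated KO array stood 3.41-fold above the untreated WT array, while the stimulated WT and KO arrays were within 1.10-fold of each other. The stimulated signal was 1.56-fold below the untreated one in WT, 5.82-fold in KO and 3.45-fold in KI cells. The mean log2 change of -1.66 did not pass (SE 0.41, limma adjusted p = 0.0676). On log2(signal + 32) without a floor it passed (-1.51, limma adjusted p = 0.0117).

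Fn1, the matrix glycoprotein that macrophages also secrete, had signals of 2174 and 1958 in WT, 2740 and 1086 in KO and 2277 and 1223 in KI cells. Untreated signals were close together, and the stimulated WT signal was above both other stimulated ones. The stimulated signal was 1.11-fold below the untreated one in WT, 2.52-fold in KO and 1.86-fold in KI cells. The mean log2 change was -0.79 and did not pass (SE 0.25, limma adjusted p = 0.115). On log2(signal + 32) this mean change passed (-0.78, limma adjusted p = 0.0432). The WT difference was 0.023 on the log2 scale once arrays were centred on their medians. The summed signal of 10 mesothelial and fibroblast markers, cells that make fibronectin, was 5212 and 5948 in WT against 2702 to 2801 in KO and KI cells, led by Dcn, decorin (1967 and 2880 in WT). Not every marker was highest in WT: untreated Col1a1 was 304 in WT, 359 in KO and 693 in KI cells. Untreated Upk3b was 234, 287 and 249 in that order, and Msln and Krt19 were under the floor on all arrays. The part of the marker sum in the Fn1 values was not tested.

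Tgm2, an enzyme known both for interleukin 4 induction and for crosslinking fibronectin, had signals of 260 and 266 in WT, 152 and 213 in KO and 145 and 170 in KI cells. The states overlapped, and both WT signals were the highest. The log2 change with stimulation was 0.25 (SE 0.23, limma adjusted p = 0.533), with an interval from -0.34 to 0.84.

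Chil3 had signals of 2329 and 640 in WT, 862 and 370 in KO and 123 and 120 in KI cells. The states overlapped, and both KI arrays lay close above the floor. The stimulated signal was 3.64-fold below the untreated one in WT, 2.33-fold in KO and 1.03-fold in KI cells, the last turning to 0.13 on the log2 scale with median centring. Chil4 is a close copy of Chil3, and whether the probe set tells them apart was not tested. The mean log2 change of -1.04 did not pass (SE 0.39, limma adjusted p = 0.167).

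Scaling moved the changes of signals above the floor by a common step. Centring the arrays on their medians adds 0.18 on the log2 scale to a stimulation change at signals above the floor, 0.11 to KO minus WT, 0.33 to KI minus WT and 0.22 to KI minus KO. In that setting Il4ra, Mrc1 and Folr2 passed for stimulation as before, while over all probe sets the split of 470 higher and 562 lower turned to 613 and 372.

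**Figure D2:**
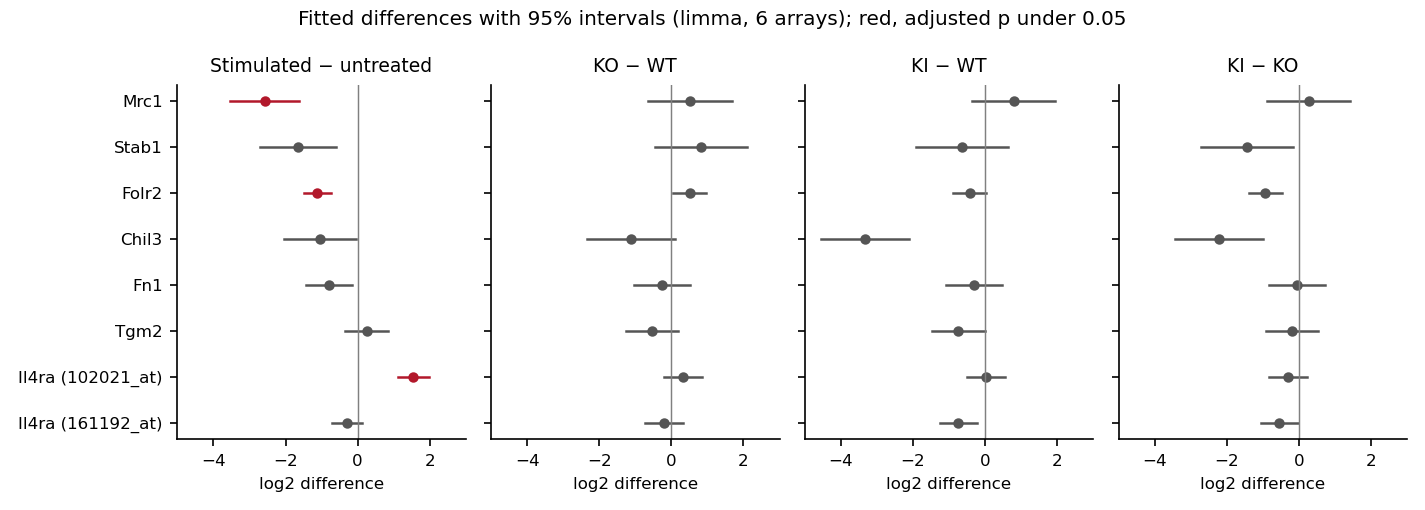
Fitted log2 differences of the 8 probe sets with 95% intervals, in the limma fit over 6 arrays, for stimulation and the 3 genotype contrasts; red marks an adjusted p under 0.05. Il4ra (102021_at), Mrc1 and Folr2 are red for stimulation, none is red between genotypes, and Chil3 lies farthest from 0 in KI minus WT at -3.33.

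Between genotypes, Chil3 had the largest differences of these genes and none passed the test. The contrasts ask how the level depends on NF-IL6 and were fitted over both states, with the state as a block. Chil3 was lower in KO than in WT by 1.11 on the log2 scale (SE 0.47, interval from -2.33 to 0.10, limma adjusted p = 0.523). The KI minus WT difference was -3.33 (SE 0.47, limma adjusted p = 0.223) and the KI minus KO difference -2.21 (SE 0.47, limma adjusted p = 0.615). In untreated cells the KI signal was 18.9-fold below WT and 6.99-fold below KO, and in stimulated cells 5.33-fold and 3.08-fold. On log2(signal + 32) the KI minus WT difference passed (-3.04, limma adjusted p = 0.0209). With a floor at the 60th percentile, which both KI signals lie under, it was -2.28 (limma adjusted p = 0.23) and KI minus KO was -1.17 (limma adjusted p = 0.724).

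Few probe sets passed any genotype contrast. With limma, 0 of 9344 probe sets passed for KO minus WT (0%), 1 for KI minus WT (0.0107%) and 0 for KI minus KO (0%), while 945, 1597 and 704 had an unadjusted p under 0.05. Among the 8 probe sets that unadjusted count was 1, 3 and 4. The KO and KI contrasts with WT share the WT arrays, so their values are only set side by side. Without the stimulated WT array, the one with no stimulation time, WT rested on its untreated array alone, which had the highest median signal. Many more probe sets then passed for KO minus WT and KI minus WT, with 0 of the 8 in each. Nearly all of them were lower than in WT. Chil3 then stood at -1.73 and -3.94 (limma adjusted p = 0.347 and 0.166). Without the untreated WT array it stood at -0.50 and -2.71 (limma adjusted p = 0.874 and 0.448). The KI minus KO difference itself takes no WT signal, but its error comes from the fit of all 6 arrays. Without the untreated KI array that difference was -1.46 for Chil3 (limma adjusted p = 1).

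Other values moved with Chil3 across the arrays. Its signals went down in exactly the order of the arrays' median signals (WT untreated, KO untreated, WT stimulated, KO stimulated, KI untreated, KI stimulated), an order held by 98 of 9344 probe sets tested (1.05%). The highest Chil3 signal was 19.4 times the lowest, against 1.41 times for the median. The summed signal of 6 B cell markers went down in the same order, through 7013, 6173, 3730, 2732, 2098 and 1975. None of the 6 kept this order by itself: Ighm, the μ heavy chain, went through 3232, 2633, 1964, 1147, 789 and 967, and Cd22 was highest in untreated KI cells, at 552 against 278 in untreated WT cells. The sum of 2 erythroid markers in that order of arrays was 1903, 1192, 1247, 937, 186 and 156, and of these Hba-a1, the haemoglobin α chain, was above the floor on all 6 arrays. The 1 probe set that passed KI minus WT carries several gene symbols and is not named here (log2 difference -4.38, limma adjusted p = 0.0297). Its signals in that order of arrays were 3791, 1541, 2231, 1114, 160 and 123. The sum of 9 neutrophil markers did not keep that order, at 1747, 1003, 2000, 1049, 1226 and 675. The part of these markers and of the arrays' signal range in the Chil3 differences was not tested.

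**Figure D3:**
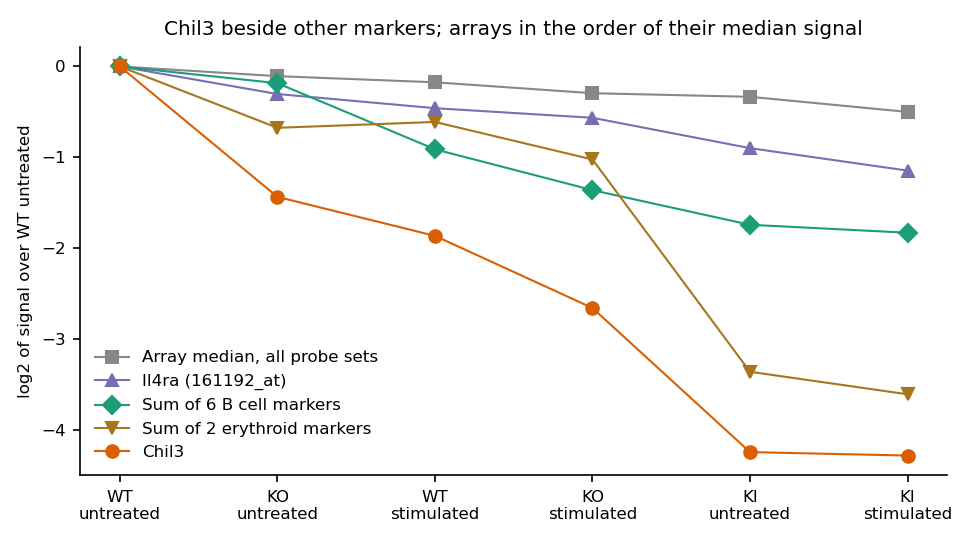
Log2 of each signal over its value on the untreated WT array, for Chil3, the Il4ra probe set 161192_at, the sums of 6 B cell and 2 erythroid markers and the array median, with arrays in the order of their median signal. Chil3 goes down most, to 120 from 2329, and the array median least, to 131 from 185.

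Differences of the endocytic receptors between genotypes are given next. Those within a state are between single arrays and have no test, and those fitted over both states did not pass. Untreated Mrc1 was 2.06-fold higher in KO and 2.99-fold higher in KI than in WT cells, and after stimulation no genotype could be compared because all 3 signals were under the floor. Untreated Stab1 was higher in KO than in WT by 1.77 on the log2 scale, and lower in KI than in KO by 1.83. Stimulated Stab1 was lower in KI than in WT by 2.31-fold and than in KO by 2.10-fold. Folr2 was higher in KO than in WT by 1.43-fold untreated and 1.42-fold stimulated, and lower in KI than in KO by 2.22-fold and 1.65-fold. Fitted over both states, KI minus KO was -0.94 for Folr2 (SE 0.18, limma adjusted p = 0.615) and -1.45 for Stab1 (SE 0.50, limma adjusted p = 0.647). The Stab1 difference was -0.78 without the untreated KO array and -0.91 when the floor was set at the 60th percentile.

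Differences of at least 1 on the log2 scale, given without a test, were counted in each state. In untreated cells, 2 of the 8 probe sets were that much higher in KO than in WT (6.29% of all tested) and 1 lower (4.3%), 1 higher in KI than in WT (8.14%) and 1 lower (10%), and 3 lower in KI than in KO (5.36%) with 0 higher (2.85%). Under the other processing settings untreated Mrc1 in KO against WT ran from 0.97 to 1.15. Untreated Folr2 in KI against KO ran from -1.30 to -0.93, so both could fall under that size. In stimulated cells none differed that much between KO and WT (2.58% of all tested were higher and 3.24% lower). There, 2 were lower in KI than in WT (4.9%) and 2 lower in KI than in KO (2.76%), Stab1 and Chil3 in both cases, and 0 higher (1.9% and 1.49%). Median centring brought the stimulated Stab1 differences to -0.88 and -0.87, under that size. With a floor at the 60th percentile they were -0.12 and 0, the last with both arrays at that floor, and stimulated Chil3 in KI against KO was -0.56.

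Il4ra on 102021_at was 1.39-fold higher in untreated KO than WT cells and within 1.07-fold of WT in untreated KI cells, and in stimulated cells the 3 genotypes lay within 1.13-fold of one another. Its KI minus WT difference over both states was 0.025 (interval from -0.51 to 0.56, limma adjusted p = 0.976). Fn1 was 1.80-fold lower in KO and 1.60-fold lower in KI than in WT cells after stimulation, and 1.26-fold and 1.05-fold higher before it. Tgm2 was lower than WT by 1.71-fold in untreated KO and 1.79-fold in untreated KI cells, and by 1.25-fold and 1.56-fold after stimulation (over both states KI minus WT -0.74, SE 0.28, limma adjusted p = 0.284). With 1 array a group, no neighbours in the order of any gene's levels could be tested.

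**Figure D4:**
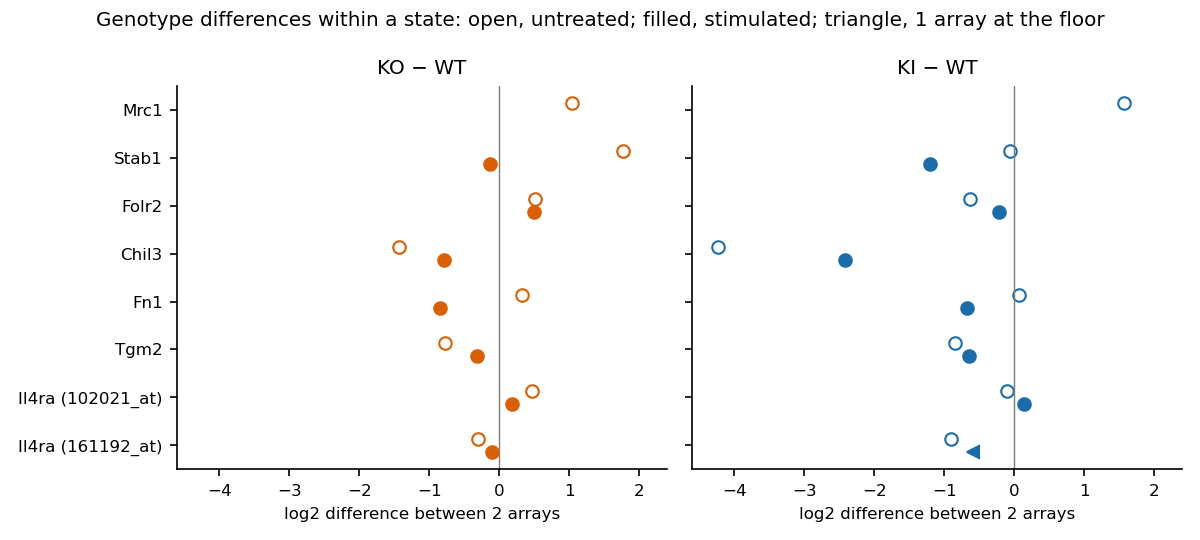
Log2 difference of KO (left) and KI (right) from WT between single arrays, for each probe set, with open points for untreated and filled points for stimulated cells; the triangle has 1 array at the floor, and no filled point is drawn where both arrays were under it (Mrc1). Chil3 in untreated KI cells lies lowest at -4.24, and Stab1 in untreated KO cells highest at 1.77.

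Of 15 tested genes of the interleukin 4 and interleukin 13 receptor pathway, 5 rose (33.3%) and 1 fell (6.67%) with stimulation, beside 5.03% and 6.01% of all probe sets tested. The median log2 change was 0.25, beside -0.12 for all tested. Stat6 (-0.0017, limma adjusted p = 0.996) and the receptor chain Il13ra1 (0.49, limma adjusted p = 0.194) were not called. Socs1, a suppressor of cytokine receptor signalling, rose by 4.29 (SE 0.19, limma adjusted p = 0.000991), from 403 to 6402 in WT, 371 to 6518 in KO and 230 to 6178 in KI cells. Jak2, a receptor-associated kinase, rose by 2.14 (SE 0.23, limma adjusted p = 0.0088), and Il4ra itself was another of the 5. Pparg, a nuclear receptor of the alternative programme, was the 1 that fell, by 2.27 on the log2 scale (SE 0.24, limma adjusted p = 0.0092). Its stimulated WT and KO signals were set to the floor.

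Of 16 other genes of alternative activation, 2 rose and 2 fell (12.5% each, beside 5.03% and 6.01% of all tested; median -0.23, beside -0.12). Ccl22, a chemokine for Th2 and regulatory T cells, rose by 4.34 and reached 3049 in WT, 11071 in KO and 6199 in KI cells. Il1rn, the interleukin 1 receptor antagonist, rose by 2.11. Cd36, a scavenger receptor, fell by 1.75 and Egr2, a transcription factor, fell by 1.03. Limma adjusted p for these 4 ran from 0.00354 to 0.0405.

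Of 19 other genes of resident peritoneal macrophages, 2 rose (10.5%, beside 5.03% of all tested) and 3 fell (15.8%, beside 6.01%), with a median of -0.43. Cd93, a phagocyte surface glycoprotein, fell by 3.81 and Cd9, a tetraspanin, fell by 1.96, from 11351 to 2928 in WT, 10621 to 2868 in KO and 12490 to 3055 in KI cells. Marco, a scavenger receptor for bacteria, rose by 3.09, with its untreated KO and KI signals set to the floor. Gas6, a ligand of the receptors Axl and Mertk, fell by 1.69. Limma adjusted p for these 4 ran from 0.00158 to 0.0405. Of 9 genes of small or recruited peritoneal macrophages, 1 rose (H2-Ab1, an MHC class II chain, by 1.08) and 1 fell (Flt3, a cytokine receptor, by 1.27), with limma adjusted p = 0.0165 and 0.0381. These are 11.1% each, beside 5.03% and 6.01% of all tested, and the list's median was 0.27.

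Of 15 partners of fibronectin and transglutaminase, 2 rose (13.3%, beside 5.03% of all tested) and 1 fell (6.67%, beside 6.01%), with a median of -0.08. Itga5, the α chain of the main fibronectin receptor, rose by 2.82 (SE 0.27, limma adjusted p = 0.00675). Its signals went from 52.7, under the floor, to 936 in WT, 303 to 1394 in KO and 201 to 1615 in KI cells. Itgb5, a β chain that pairs with the αv integrin, fell by 3.59, and Plaur, the urokinase receptor, rose by 0.59 (limma adjusted p = 0.00297 and 0.0398). The last list held 15 tested genes, endocytic receptors with folate-handling genes (Slc19a1, Ggh and Fpgs) and trafficking adaptors (Gga1, Snx17 and Ap1m1). Of these, 2 rose and 1 fell, the same shares, with a median of -0.25. Ly75, a member of the mannose receptor family, rose by 2.41 (SE 0.36, limma adjusted p = 0.021), the opposite direction from Mrc1. Its untreated WT and KO signals were set to the floor. Marco and Cd36, given above, are the others called in this list. No member of these 6 lists passed any genotype contrast.

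**Figure D5:**
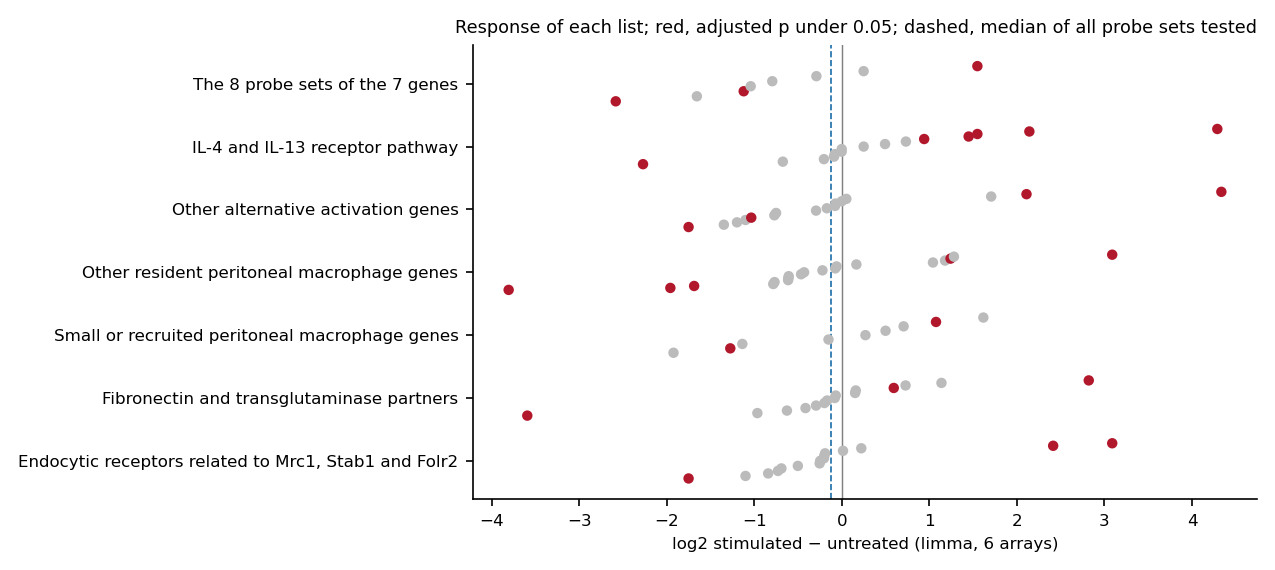
Log2 change with stimulation of every tested gene in the 6 lists and of the 8 probe sets, each point 1 gene or probe set, red at a limma adjusted p under 0.05, with a dashed line at the median of all probe sets tested (-0.12). Each list holds genes that rose and genes that fell, from -3.81 for Cd93 to 4.34 for Ccl22.

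Among the 7 genes, patterns over the 6 arrays were compared by Pearson's r of floored log2 signals. This is a description over arrays that all genes share. Stab1 and Folr2 were close (r = 0.918), and Mrc1 and Il4ra on 102021_at were opposed (r = -0.914). The highest r was that of Chil3 with the Il4ra probe set 161192_at (0.991), the pair that followed the order of the arrays' medians.

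Over the same 6 arrays, the nearest of 4120 other single-symbol probe sets that ranged over at least 1 on the log2 scale were taken for each gene, again as a description. For Mrc1 they were Sc5d, Retreg1 and Stk11ip (r = 0.999, 0.997 and 0.995), where stimulated signals of Mrc1 and Sc5d were all set to the floor. So were those of Stk11ip in WT and KO cells. Retreg1 went from 1085 to 407 in WT, 1595 to 441 in KO and 2365 to 391 in KI cells. For Stab1 they were Dna2, Tgfbi and Ccnb2 (0.986, 0.984 and 0.983), and Tgfbi stood at 4590 in untreated KO cells against 1025 and 1003 in untreated WT and KI cells. For Folr2 they were Gmnn, Man1a and AW549877 (0.989, 0.985 and 0.983), with Gmnn and Man1a under the floor in stimulated WT and KI cells. For Chil3 they were Bmp4, Ndrg4 and Hic1 (0.996, 0.995 and 0.993), each highest on the untreated WT array. For Fn1 they were Gdpd3, Sgpp1 and Msr1 (0.972, 0.968 and 0.967), and Msr1, a scavenger receptor, went from 1223 to 1156 in WT, 1588 to 484 in KO and 1138 to 401 in KI cells. For Tgm2 they were Dpp6, Ceacam2 and Krtap14 (0.987, 0.986 and 0.984, of 4121 probe sets). Of these, Dpp6 and Ceacam2 were under the floor in untreated KO and KI cells, and Krtap14 in untreated KI cells. For Il4ra on 102021_at they were Ehd1, Junb and Glrx (0.998, 0.997 and 0.996), and for 161192_at Olfr70, Ndrg4 and Med28 (0.997, 0.996 and 0.995). Dna2, Gdpd3 and Ndrg4 were also under the floor in stimulated KI cells, and Hic1 in untreated KI cells.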

How the data were processed

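RNA of 6 samples was hybridised to Affymetrix arrays as biotin-labelled cRNA made from 6 µg of total RNA, per the labels' protocols. The authors deposited linear signal intensity values for 12488 probe sets, by MAS5 according to the submitters' processing notes; the sources used here do not give its version or scaling target. Intensities were scaled to 1 trimmed mean, raised to a floor at the 40th percentile and converted to log2 in R 4.3.3 with limma 3.58.1. The 66 control probe sets and those above the floor on no array were left out, which kept 9344. Symbols came from the platform annotation, and 10817 probe sets matched RefSeq gene identifiers with 0 symbols changed.

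The additive fit (genotype and state, 2 residual degrees of freedom, eBayes with a trend, Benjamini-Hochberg over 9344) gave all p-values, and the code was tested on simulated data. Values between 2 arrays have no test. Where one signal was below the floor, the fold was taken from the floor and written "at least". Promoter windows leave out the 50 bases after the start, and 1 planned motif is not reported here. In each list a gene is its brightest probe set. The rule named all probe sets of the 7 genes, Cebpb, up to 4 called genes of each list with the largest changes, and the 3 nearest patterns. The genes and lists were chosen with earlier results of these data known.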

Additional observations from a re-analysis of the deposited data

Results flagged for a closer look

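These results are single-array differences from one genotype to another that took opposite signs in untreated and stimulated cells, with all 4 arrays above the floor. None of these changes of sign was tested. Stab1 in KO against WT differed by 1.77 on the log2 scale in untreated and by -0.13 in stimulated cells. Fn1 in KO against WT differed by 0.33 and -0.85, in KI against WT by 0.068 and -0.68, and in KI against KO by -0.27 and 0.17. Il4ra on probe set 102021_at in KI against WT differed by -0.096 and 0.15. Under the other processing settings this untreated Il4ra difference ran from -0.096 to 0.24 and the stimulated one from 0.076 to 0.47. The Il4ra change of sign was therefore not kept in every setting.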

How the results depend on the processing

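With 1 array in each group, the number of arrays limited every result. No paired analysis was possible because the labels number no replicates, beyond the genotype block that the stimulation fit already has. For stimulation, log2(signal + 32) called 1614 probe sets in place of 1032 and 5 of the 8 studied here in place of 3, and no filter on low values called 69 and 0, with 12422 probe sets in the adjustment. Leaving out 1 array gave 0 to 15 probe sets and 0 of the 8. For KO minus WT, where the main count was 0, a floor at the 20th percentile and quantile normalization gave 1 each, log2(signal + 32) gave 7, and leaving out 1 array gave 0 to 498, the highest without the stimulated WT array. For KI minus WT, where it was 1, a floor at the 60th percentile, quantile normalization and eBayes without a trend gave 0, no filter gave 4, log2(signal + 32) gave 69 and 1 of the 8 (Chil3), and leaving out 1 array gave 0 to 539, the highest without the stimulated WT array. For KI minus KO, where it was 0, a floor at the 20th percentile gave 2 and log2(signal + 32) 16. Among fitted values of the 8 probe sets, 13 of 412 alternatives turned a sign, none of them of a called value. Median centring turned Fn1 to 0.024 in KI minus WT and to 0.17 in KI minus KO, and Tgm2 to 0.0205 in KI minus KO, where quantile normalization gave 0.017. With 1 array left out, KO minus WT ran from -0.13 to 1.17 for Mrc1 and from -0.74 to 0.22 for Fn1. KI minus WT ran from -1.39 to 0.13 for Stab1, from -0.79 to 0.18 for Fn1 and from -0.17 to 0.22 for Il4ra on 102021_at. KI minus KO ran from -0.26 to 0.80 for Mrc1 and from -0.45 to 0.36 for Fn1. The causes were not tested.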

Other observations

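Other genes of the lists are given here as values from single arrays, chosen after their values were seen. Arg1, the arginine-degrading enzyme of alternative activation, was at 194 and 132 in untreated and stimulated KI cells, against 3949 and 3320 in WT cells and 3674 and 388 in KO cells. Itgax, the integrin chain CD11c, was at 7301 in untreated KI cells, 1799 in KO and 816 in WT. Serpinb2, a protease inhibitor, was at 478 and 2579 in untreated and stimulated WT cells. It was at 64.5 and 158 in KO cells and 24.8 and 93.3 in KI cells, with 64.5 and the KI pair under the floor. Lyve1, a hyaluronan receptor of resident macrophages, was at 138 and 170 in untreated WT and KO cells, and at 6.8 in KI cells, under the floor. Other genes of these lists were higher in untreated KI than untreated WT cells: Cd36 (1433 against 624.5), Egr2 (4768 against 1956) and Cd93 (4167 against 1681). The median KI minus WT log2 difference was 0.0275 for the other alternative activation genes. It was -0.25 for the other resident macrophage genes, beside -0.11 for all tested.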
